A study of Mus musculus with 9 samples.

Results

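The genes described here are the solute carriers that mouse dendritic cells transcribed at a measurable level. Of 371 protein-coding mouse genes whose symbol begins with Slc and a number, 169 had 1 or more FPKM (a read level corrected for transcript length and library size) in at least 3 of 9 libraries. A further 193 stayed below that level, and 9 were left out by name: Slc40a1, Slc11a1, Slc48a1, Slc7a11, Slc7a2, Slc2a1, Slc2a3, Slc16a1 and Slc16a3. The level itself chose the members, so their being transcribed is no result. The members were thus chosen by FPKM over all 9 libraries. Of the 169, 139 were at 1 FPKM or more in all 9 libraries and 30 were not.

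The libraries were mRNA-seq of dendritic cells grown from bone marrow monocytes of C57BL/6 mice, cultured over 7 days with IL-4 (50 ng/mL) and GM-CSF (100 ng/mL) before a flow cytometry sort. The control group (3 libraries) had no stimulation. The R837 group (3 libraries) had 24 hours of interferon α priming followed by 18 hours of R837; R837 is imiquimod, a small molecule that activates Toll-like receptor 7 in endosomes. The third group (3 libraries) had the same priming and R837 together with spermidine, a polyamine. Whether control cells were also primed is not given in the sources used here, so interferon α and R837 cannot be told apart in the comparison with control. Doses of R837, spermidine and interferon α, the sex and age of the mice, and whether replicates came from separate animals or cultures are likewise not given, so the p-values reflect how far these libraries spread, which may be technical.

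Solute carriers are membrane proteins that move small molecules across the plasma membrane and the membranes of lysosomes, mitochondria and the Golgi apparatus. Some work as exchangers, some use the sodium or proton gradient, and some let their substrate run down its own gradient. In myeloid cells they supply amino acids and sugars, load or empty the endolysosome in which Toll-like receptor 7 resides, and set the metal content of each compartment.

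Summed FPKM of 12 dendritic cell and macrophage markers, of which Cd74 gave the most, was 4066 to 4850 in every library, with Cd209a listed at 0 and Flt3 below 1 FPKM throughout. Zbtb46, also listed, was at 0.483 to 0.737 FPKM in control, 1.93 to 2.06 after R837 and 1.49 to 1.54 with spermidine. Within that list R837 replicate 2 stood apart: Itgam was at 37.1 FPKM there, against 110 and 130 in replicates 1 and 3, and Adgre1 at 71.6 against 145 and 161. Summed monocyte markers were 127 to 139 FPKM in control, 162 to 186 after R837 and 120 to 187 with spermidine. Mast cell and basophil markers summed to 12.2 to 15.6, 5.41 to 9.31 and 6.13 to 7.02 FPKM in the same order. Summed T and NK cell markers reached at most 1.05 FPKM. R837 replicates 2 and 3 also held erythroid mRNA. Summed FPKM of 7 erythroid markers reached 1985 in the R837 group, with Hbb-bs, a hemoglobin gene, listed at 0, 98 and 815 FPKM in replicates 1, 2 and 3. The erythroid sum was 0.163 to 11.3 in control, where replicate 1 had Hba-a1 at 4.95 and Hba-a2 at 6.03 FPKM, and 0.0963 to 0.262 with spermidine. Summed neutrophil markers were 75.3 to 363 FPKM in the R837 libraries, highest in replicate 3, against 52.9 to 71.2 in all others. Summed B cell markers reached 4.67 FPKM in R837 replicate 3 and at most 0.603 outside that group, while Col1a1, Col1a2, Col3a1 and Cxcl12 of the 5 stromal markers were below 1 FPKM in every library. The remaining stromal marker, Pdgfrb, was at 0.102 to 0.292 FPKM in control, 10.7 to 11.7 after R837 and 3.41 to 4.16 with spermidine. Results were therefore also computed without each library and with R837 replicate 1 as the sole R837 library, a choice made after seeing the data; the part of these other cells in a result was not tested beyond that. In bulk RNA, fewer cells of a type and less RNA per cell cannot be told apart.

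Members spanned a wide range, from a mean of 0.426 FPKM over the 9 libraries to 268 FPKM for Slc3a2, the heavy chain of several amino acid exchangers, with a median of 6.08 FPKM. Only 5 members averaged 100 FPKM or more, 64 averaged 10 or more, and 36 averaged below 2. The members nearest the threshold had 3 libraries at 1 FPKM, among them Slc24a5 at 0.687 to 1.16 FPKM over the 9 libraries. Just outside, with 2 such libraries, were Slc26a10 at 0.495 to 1.36 FPKM, Slc6a19 at 0.532 to 1.32 FPKM, and Slc4a1, the red cell anion exchanger. Slc4a1 was at 2.61 and 4.72 FPKM in R837 replicates 2 and 3 and was listed at 0 in the other 7 libraries. Slc1a2, Slc10a7, Slc47a1 and Slc9a9 reached 1 FPKM only in libraries of 1 group: those 4 had to differ between groups to be members, and their changes are given as descriptions. More widely, 6 members called higher after R837 had no control library at 1 FPKM (Slc1a2, Slc22a21, Slc22a23, Slc4a7, Slc6a20a and Slc6a4), and 6 called lower had no R837 library there (Slc10a7, Slc27a6, Slc3a1, Slc46a3, Slc47a1 and Slc9a9). Membership favoured these changes, so their p-values support nothing. Members such as Slc46a1 and Slc38a9, with only 1 R837 library at 1 FPKM, were favoured in the same way but stay in the counts below.

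After R837, more carriers fell than rose. Against control, 35 members rose, 61 fell and 73 were not called in limma with Benjamini-Hochberg adjustment at an adjusted p of 0.05 over 11768 genes. Without the 12 members that had no library at 1 FPKM in the lower group, 29 rose and 55 fell. Among all genes tested, 13.6% rose and 29.5% fell, and the median log2 change of (FPKM + 1) was -0.19 for the members and -0.17 for all genes. The excess of falls depended on scaling: with median-of-ratios scaling, which moved the median of all genes to -0.02, 40 members rose and 41 fell, against 18.1% and 16.5% of all genes. Changes in this comparison therefore read best against a general shift of -0.17.

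Adding spermidine to R837 moved fewer carriers. Against R837 alone, 14 members rose, 23 fell and 132 were not called, or 14 and 22 without Slc1a2, beside 5.60% and 8.0% of all genes, and the median change was -0.01 for members and -0.02 for all genes. With median-of-ratios scaling the counts were again 14 and 23, beside 6.02% and 7.41% of all genes. These counts depended on each spermidine library: without spermidine replicate 1, 2 or 3 the rises numbered 9, 7 and 8, and the falls 13, 14 and 9. Counts over all genes dropped too, from 659 rises and 942 falls to 432 and 656, 290 and 476, and 290 and 459. The drop is thus not particular to the carriers. With R837 replicate 1 alone in its arm, 9 members fell. Against control, R837 with spermidine gave 34 rises and 67 falls, beside 14.1% and 32.7% of all genes. Without the 6 called higher and 5 called lower that had no library at 1 FPKM in the lower group, 28 rose and 62 fell. With median-of-ratios scaling there were 44 rises and 42 falls, beside 20.4% and 18.4% of all genes. These comparisons share libraries, so their values are set side by side and no overlap between them is read as a result.

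Side by side, 16 members that rose with R837 were lower again with spermidine added, and 17 that rose were not called in the second comparison. Of the 61 that fell with R837, 7 were higher with spermidine, 2 fell further and 52 were not called. Only Slc31a1 and Slc38a2 rose in both comparisons, and 10 members were called at the spermidine step but not at the R837 step, 5 in each direction. The same courses were not counted over all genes, and members such as Slc1a2, whose membership favoured their change, are among those counted. The R837 libraries enter the 2 comparisons with opposite signs, which favours reversals in any set of genes. Nothing is read from these counts about the carriers.

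**Figure D1:**
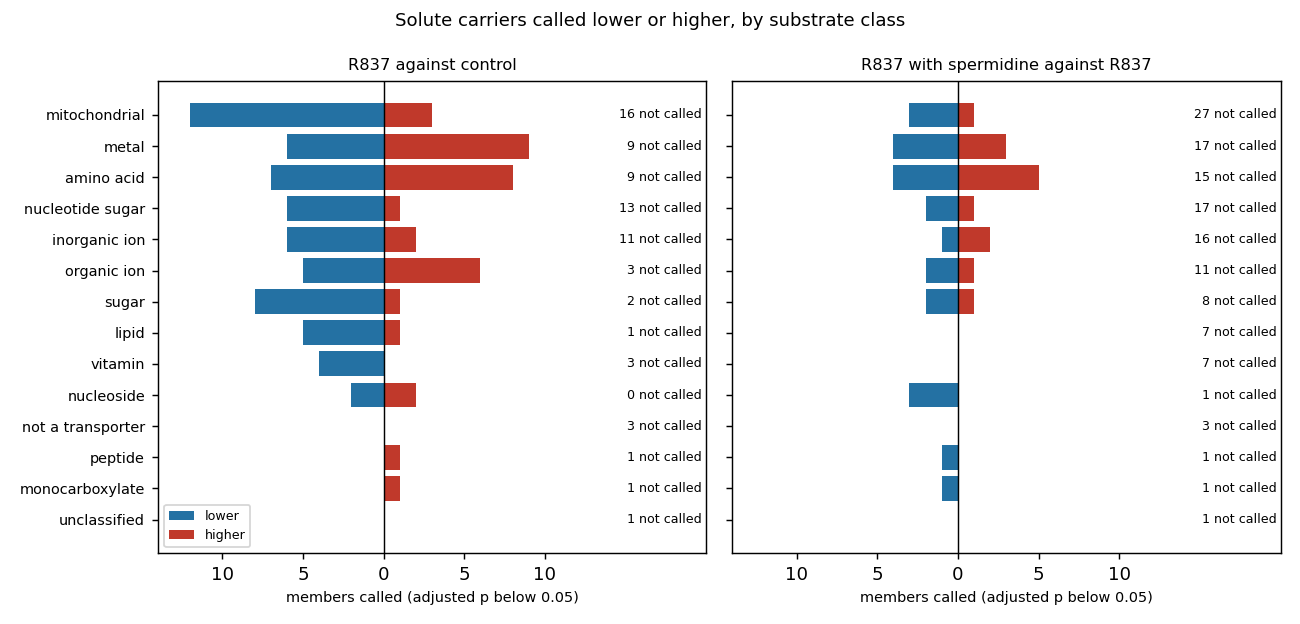
Members called higher (right, red) or lower (left, blue) by substrate class for R837 against control (left panel) and R837 with spermidine against R837 (right panel), with the number not called at the right edge. Mitochondrial carriers had 12 falls and 3 rises after R837, a split that became 7 and 6 with median-of-ratios scaling, and metal carriers 6 falls and 9 rises, or 4 and 9. Of all genes, 29.5% fell and 13.6% rose, or 16.5% and 18.1% with median-of-ratios scaling.

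**Figure D2:**
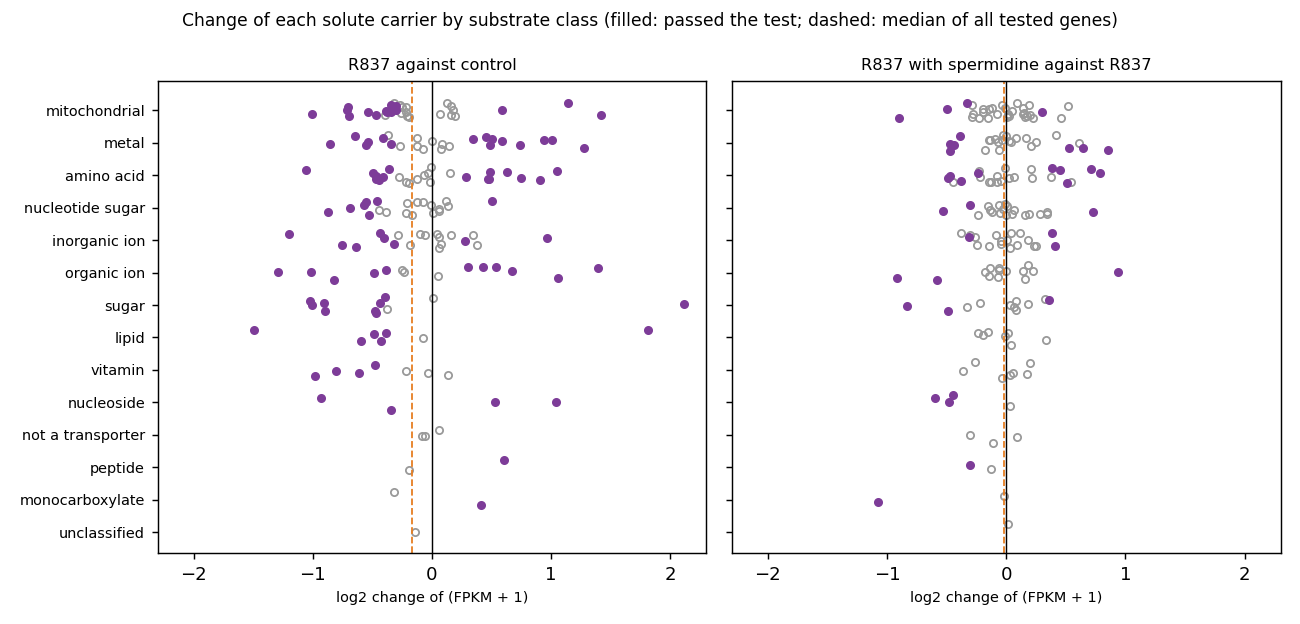
Each point is 1 member, placed by its log2 change of (FPKM + 1) and its class, filled where the adjusted p was below 0.05; the dashed line is the median of all 11768 genes. Changes reached from -1.49 for Slc27a6 to 2.11 for Slc2a6 after R837, and from -1.08 for Slc16a6 to 0.94 for Slc22a4 with spermidine.

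Amino acid carriers moved in both directions. After R837, 8 of 24 rose, 7 fell and 9 were not called, with a median change of -0.05 (9 rises and 5 falls with median-of-ratios scaling). Without Slc1a2, Slc3a1 and Slc6a20a the counts were 6 rises and 6 falls, while 13.6% of all genes rose and 29.5% fell. With spermidine, 5 rose and 4 fell, or 5 and 3 without Slc1a2, beside 5.60% and 8.0% of all genes, with a median of -0.03. Slc7a8, the light chain LAT2 that exchanges neutral amino acids, measured 55.1, 57.7 and 55.4 FPKM in control replicates 1 to 3, 115, 123 and 114 after R837, and 100.0, 101 and 95.6 with spermidine. The 3 groups did not overlap. Its rise with R837 was 1.05 ± 0.06 (log2 change ± SE, n = 3 libraries a group, limma adjusted p = 2.5e-06). The fall with spermidine, -0.24 ± 0.06, passed narrowly (limma adjusted p = 0.040) and was lost when any library other than R837 replicate 2 was left out, with adjusted p up to 0.145.

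Of the 5 members listed as system L and y+L chains with their heavy chain, Slc7a8 and Slc7a7 rose with R837, none fell and 3 were not called. Slc7a5, the LAT1 light chain, was at 23.2 ± 1.00 FPKM (mean ± SD, n = 3) in control, 21.2 ± 1.94 after R837 and 19.1 ± 1.82 with spermidine. Neither step was called, with a 95% interval of -0.34 to 0.08 for R837 and -0.36 to 0.06 for spermidine. Slc7a6, a y+L light chain, was not called either (6.17 ± 0.181, 5.23 ± 1.11 and 4.88 ± 0.754 FPKM), and its neighbour Slc7a6os lies 2010 bases away on the other strand, so reads near their ends may be shared. Slc7a7, the other y+L light chain, rose from 2.48 ± 0.252 to 3.86 ± 0.708 FPKM (log2 change 0.47, limma adjusted p = 0.019) and stood at 2.56 ± 0.448 with spermidine; the rise was lost with R837 replicate 1 alone (0.25, adjusted p = 0.264), without R837 replicate 3 (0.38, adjusted p = 0.060) and without control replicate 3 (adjusted p = 0.067). The difference with spermidine, -0.44 (limma adjusted p = 0.060), passed without R837 replicate 1 (-0.56, adjusted p = 0.037). Slc16a10, which carries aromatic amino acids, rose from 17.4 ± 0.839 to 27.5 ± 0.851 FPKM and was 28.8 ± 1.68 with spermidine, a second step of 0.07 with an interval of -0.10 to 0.23.

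Slc43a2, the LAT4 uniporter of large neutral amino acids, went the opposite way to Slc7a8. Its libraries measured 29.2, 31.2 and 28.2 FPKM in control, 12.5, 15.3 and 13.3 after R837, and 23.0, 23.4 and 22.6 with spermidine. All 3 groups were separate, with the spermidine libraries between the others. It fell by 1.06 on the log2 scale with R837 (limma adjusted p = 1.3e-05) and rose by 0.71 ± 0.08 with spermidine (adjusted p = 0.0012).

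Slc36a1, the proton-coupled carrier PAT1 that takes small neutral amino acids out of lysosomes, was at 23.9, 23.8 and 23.7 FPKM in control, 15.9, 18.1 and 16.9 after R837, and 23.8, 26.0 and 23.7 with spermidine. The R837 libraries lay below all others, and control and spermidine libraries overlapped. The fall was -0.47 ± 0.07 (limma adjusted p = 0.00086) and the rise with spermidine 0.51 ± 0.07 (adjusted p = 0.0030). Its relative Slc36a4 gave the same order of means, 22.0, 16.6 and 22.8 FPKM, but R837 replicate 2 at 12.8 FPKM set it apart from replicates 1 and 3 at 18.2 and 18.8. Both Slc36a4 calls were narrow (limma adjusted p = 0.031 and 0.049). The first was lost with median-of-ratios scaling (-0.23, adjusted p = 0.21) and without any control library (adjusted p up to 0.085), the second without any spermidine library (up to 0.153). With R837 replicate 1 alone neither passed (-0.26 and 0.31, adjusted p = 0.056 and 0.088). Slc38a9, a lysosomal arginine sensor, was low, at 1.65 ± 0.103 FPKM in control, 0.914 ± 0.0962 after R837 and 0.858 ± 0.140 with spermidine. Only 1 R837 and 1 spermidine library reached 1 FPKM, so its membership needed the control libraries and its fall is a description.

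Among sodium-coupled carriers, Slc38a2, the system A transporter SNAT2, rose in both steps. It measured 58.7, 58.7 and 61.5 FPKM in control, 74.2, 66.5 and 78.1 after R837, and 91.4, 100.0 and 94.5 with spermidine, with no overlap. The steps were 0.28 ± 0.08 (limma adjusted p = 0.016) and 0.38 ± 0.08 (adjusted p = 0.013). The first was lost without R837 replicate 3 (0.23, adjusted p = 0.051), control replicate 1 (adjusted p = 0.054) or control replicate 2 (adjusted p = 0.056), and the second without spermidine replicate 2 (0.35, adjusted p = 0.055) or 3 (adjusted p = 0.051). Slc1a5, the glutamine transporter ASCT2, was called for spermidine alone: 25.6, 23.5 and 24.6 FPKM in control, 21.5, 22.5 and 20.2 after R837, and 15.6, 14.5 and 14.8 with spermidine. Its spermidine libraries were the lowest, with a change of -0.49 ± 0.07 (limma adjusted p = 0.0032), and the step from control to R837 was -0.19 with an interval of -0.35 to -0.03 (adjusted p = 0.057), which passed without R837 replicate 2 (-0.23, adjusted p = 0.021). Slc6a9, a glycine transporter, stood at 1.72 ± 0.191 and 1.71 ± 0.360 FPKM without spermidine and 3.64 ± 0.401 with it, a rise of 0.78 ± 0.12 (limma adjusted p = 0.0038). The glial glutamate transporter Slc1a2 was at 0.139 to 0.178 FPKM in control, 1.10 to 1.24 after R837 and 0.482 to 0.700 with spermidine, and was a member through its R837 libraries only.

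Of the paralogs Slc6a20a and Slc6a20b, 2204 bases apart on chromosome 9, the first averaged 0.289 FPKM in control and 1.16 after R837, and the second, not called, 1.16 and 1.07 FPKM. Slc6a20a was a member through 2 R837 libraries and 1 spermidine library, so its difference is a description. Reads may be split between such paralogs, so both values are uncertain.

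Candidate polyamine carriers bear on the added spermidine, and 4 of the 10 listed were members. Leaving aside Slc47a1, whose membership rests on its control level, 1 rose, 1 fell and 1 was not called after R837, and with spermidine likewise 1 rose, 1 fell and 1 was not called. Slc12a8, Slc22a2 and Slc22a16 were listed at 0 in every library, and Slc22a3 and Slc18b1, the vesicular polyamine transporter, did not exceed 0.056 FPKM. Slc3a2, tied to polyamine export in human colon cancer cells, measured 247, 239 and 223 FPKM in control, 239, 291 and 261 after R837, and 303, 303 and 309 with spermidine. Spermidine libraries were the highest, yet neither step was called (limma adjusted p = 0.16 and 0.12); against control the rise with spermidine was 0.37 ± 0.08 (adjusted p = 0.0057). Without R837 replicate 2, the step from R837 to spermidine reached 0.29 and passed (adjusted p = 0.021), and with median-of-ratios scaling the step from control to R837 passed (0.34, adjusted p = 0.0095).

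Slc7a1, the cationic transporter CAT1 that imports arginine, rose from 15.9 ± 0.794 to 22.6 ± 1.81 FPKM with R837 and was 17.1 ± 0.649 with spermidine. In single libraries this was 15, 16.4 and 16.3, then 21.6, 24.7 and 21.5, then 17.1, 17.8 and 16.5 FPKM, with the R837 libraries above all others. The steps were 0.48 ± 0.08 (limma adjusted p = 0.0012) and -0.38 ± 0.08 (adjusted p = 0.016), the second lost without spermidine replicate 3 (-0.35, adjusted p = 0.069) and with R837 replicate 1 alone (-0.32, adjusted p = 0.079). Slc45a4, which has been reported to carry polyamines, fell from 4.17 ± 0.305 to 1.54 ± 0.194 FPKM (-1.03 ± 0.10, limma adjusted p = 4.5e-05) and was 2.27 ± 0.276 with spermidine. That second step, 0.36 ± 0.10, passed narrowly (limma adjusted p = 0.045) and was lost when any library but R837 replicate 2 was left out (adjusted p up to 0.152). Slc47a1, the multidrug and toxin extrusion carrier MATE1, was at 1.11, 1.12 and 1.21 FPKM in control and at no more than 0.134 in any other library, and was a member through its control libraries only.

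Outside the solute carriers, 5 genes tied to polyamine transport were read beside these. Atp13a2, the lysosomal polyamine exporter, fell with R837 (28.0 ± 1.35 to 16.9 ± 3.08 FPKM, limma adjusted p = 0.0015) and stood at 12.9 ± 1.13 with spermidine (adjusted p = 0.090 against R837). Atp13a3 was 9.97 ± 0.361, 10.8 ± 3.92 and 16.7 ± 1.29 FPKM, with neither step called. Its R837 replicates 1 to 3 were at 12.9, 6.28 and 13.3 FPKM. Against control the rise with spermidine was 0.69 ± 0.22 (limma adjusted p = 0.031). Atp13a4 rose with R837 from 1.68 ± 0.175 to 5.83 ± 0.310 FPKM (limma adjusted p = 2.0e-06) and was 6.22 ± 0.0928 with spermidine. Cav1, caveolin 1, rose and was then lower (4.06, 13.0 and 8.88 FPKM), and the glypican Gpc1 was not called (27.2, 26.1 and 31.2 FPKM).

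**Figure D3:**
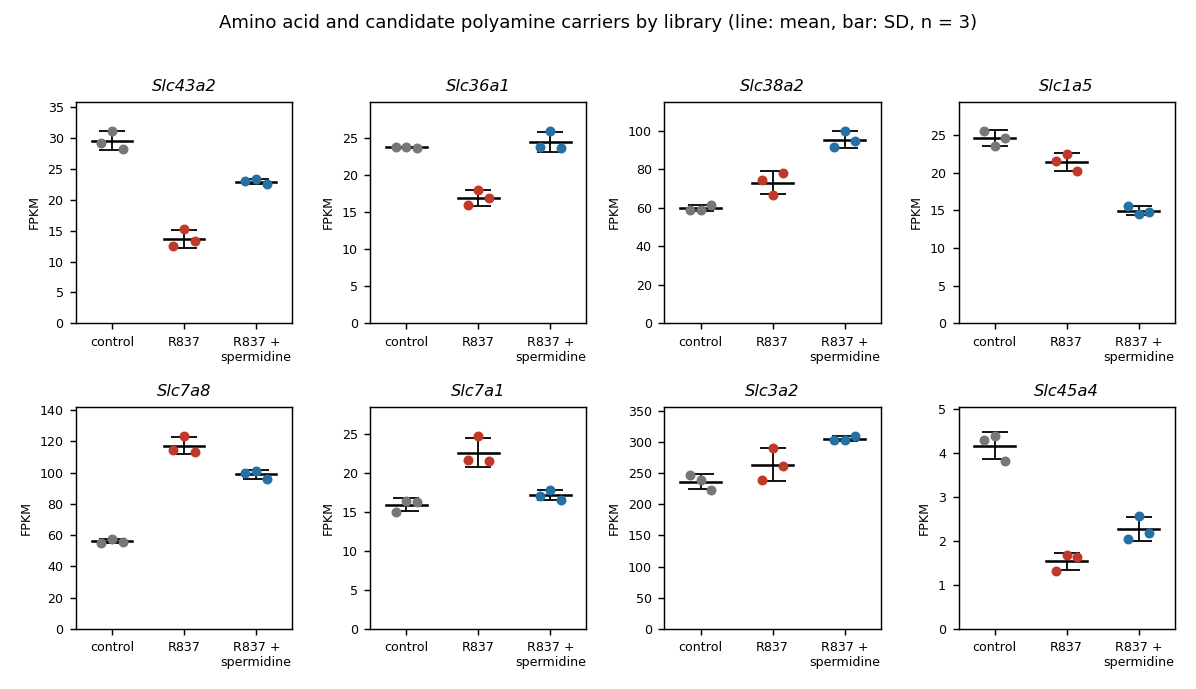
FPKM of 8 amino acid and candidate polyamine carriers in each of the 9 libraries (points), with the group mean (line) and SD (bar), each panel starting at 0. Slc43a2 and Slc36a1 are lowest in the R837 libraries, Slc7a8 and Slc7a1 highest there, and Slc1a5 lowest with spermidine at 14.5 to 15.6 FPKM.

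Metal carriers moved in both directions. After R837, 9 of 24 rose, 6 fell and 9 were not called, with a median change of 0.04 (9 rises and 4 falls with median-of-ratios scaling). The 9 rises and 6 falls are 37.5% and 25% of the class, beside 13.6% and 29.5% of all genes. With spermidine, 3 rose, 4 fell and 17 were not called, while 5.60% of all genes rose and 8.0% fell. Slc11a2, the divalent metal transporter DMT1 that moves ferrous iron out of endosomes, measured 23.8, 22.6 and 21.4 FPKM in control, 46.7, 50.8 and 42.1 after R837, and 42.6, 48.5 and 50.7 with spermidine. Control libraries were the lowest and both treated groups overlapped. The rise was 1.01 ± 0.09 (limma adjusted p = 3.6e-05), and spermidine made a difference of 0.02 with an interval of -0.19 to 0.24.

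Zinc enters the cytosol through the Slc39 family and leaves it through the Slc30 family. Of 12 expressed Slc39 members, 2 rose and 4 fell with R837 (2 and 3 with median-of-ratios scaling), and 1 rose and 1 fell with spermidine. All genes gave 13.6% rises and 29.5% falls with R837, and 5.60% and 8.0% with spermidine. Nothing is read from these counts about the family. Slc39a14, which also takes up iron and manganese, rose from 1.34, 1.35 and 1.43 FPKM to 4.64, 4.64 and 4.97 and was 3.48, 3.01 and 3.23 with spermidine. No group overlapped another; the steps were 1.28 ± 0.08 (limma adjusted p = 2.5e-06) and -0.44 ± 0.08 (adjusted p = 0.0080), the second lost with R837 replicate 1 alone (-0.41, adjusted p = 0.070). Slc39a10, a zinc importer of the plasma membrane, fell from 3.89 ± 0.670 to 1.74 ± 0.592 FPKM (limma adjusted p = 0.0034), and was 2.61 ± 0.235 with spermidine. Slc39a4, the intestinal zinc importer, was called for spermidine alone, with 14.8, 15.3 and 13.8 FPKM in control, 15.4, 19.2 and 14.4 after R837, and 26.2, 27.9 and 23.8 with spermidine. The spermidine libraries were the highest, by 0.64 ± 0.11 over R837 (limma adjusted p = 0.0065).

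Of 6 expressed Slc30 members, 2 rose and 1 fell with R837 (2 and 0 with median-of-ratios scaling), and 1 rose and 1 fell with spermidine. Shares of all genes were 13.6% and 29.5% with R837, and 5.60% and 8.0% with spermidine. These 6 members are too few to read a share from. Slc30a1, the plasma membrane zinc exporter, showed one of the larger spermidine differences among the carriers. It stood at 46.3, 44.8 and 44.0 FPKM in control, 38.6, 45.9 and 43.5 after R837, and 69.4, 80.9 and 83.7 with spermidine. Control and R837 libraries overlapped, and every spermidine library exceeded both groups. The rise was 0.85 ± 0.09 (limma adjusted p = 0.00081), while the R837 step was -0.08 with an interval of -0.29 to 0.13. Slc30a6, a Golgi zinc transporter, rose with R837 from 6.68 ± 0.557 to 13.7 ± 0.814 FPKM (limma adjusted p = 2.3e-05) and was 10.3 ± 0.418 with spermidine (adjusted p = 0.017), a second step lost without spermidine replicate 1 (adjusted p = 0.053) or 3 (adjusted p = 0.062) and with R837 replicate 1 alone (-0.38, adjusted p = 0.083). Slc30a4, an endosomal zinc transporter, rose from 3.30 ± 0.232 to 6.31 ± 1.86 FPKM (limma adjusted p = 0.0050) and was 7.02 ± 0.472 with spermidine.

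Promoters of 2 members that rose with spermidine are shown with matches to known motifs in capitals. Slc30a1 is a known target of the metal-sensing factor MTF1, whose metal response element has the core TGCACNC or TGCGCNC, and TCACGTGA is the E-box bound by TFEB at many lysosomal genes such as Slc36a1. Each window holds 300 bases around a start listed by RefSeq, build GRCm38.p6, forward strand: chr1:191906531-191906830 for Slc30a1 and chr11:55204090-55204389 for Slc36a1. On both strands, the metal core was found in 25.7% of 32851 promoter windows and in 36.4% of the 176 windows of the 128 members with a RefSeq match. The E-box was found in 0.974% of all windows and in 4 of the member windows. Another motif, TGACNNNGC, the core of the antioxidant response element, overlapped the E-box of Slc36a1 and neither of the 2 matches of Slc30a1. Motifs and genes were chosen after their values were seen, and a match describes the letters alone.
Slc30a1: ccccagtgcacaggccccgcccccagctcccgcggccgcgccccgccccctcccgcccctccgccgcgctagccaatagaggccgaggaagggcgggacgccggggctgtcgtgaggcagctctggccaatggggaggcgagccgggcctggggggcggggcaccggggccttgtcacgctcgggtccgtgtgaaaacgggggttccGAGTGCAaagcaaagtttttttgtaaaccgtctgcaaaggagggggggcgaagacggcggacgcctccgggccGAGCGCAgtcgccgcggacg
Slc36a1: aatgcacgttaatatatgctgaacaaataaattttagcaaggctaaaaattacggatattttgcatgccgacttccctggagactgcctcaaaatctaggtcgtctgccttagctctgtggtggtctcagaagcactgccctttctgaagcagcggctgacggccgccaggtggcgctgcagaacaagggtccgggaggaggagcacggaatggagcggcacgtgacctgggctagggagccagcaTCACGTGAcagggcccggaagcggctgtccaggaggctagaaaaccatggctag

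Copper carriers are neighbours on chromosome 4, 62315 bases apart, and differed in sign at the spermidine step. Slc31a1, the high-affinity copper importer CTR1, was at 23.0, 22.3 and 21.8 FPKM in control, 34.6, 24.5 and 35.0 after R837, and 44.3, 45.0 and 45.7 with spermidine. Groups were separate, with R837 replicate 2 close to control. The steps were 0.45 ± 0.12 and 0.53 ± 0.12 (limma adjusted p = 0.016 and 0.025). The first was lost without R837 replicate 1 (adjusted p = 0.058), R837 replicate 3 (0.053) or control replicate 3 (0.051), and the second without spermidine replicate 1, 2 or 3 (adjusted p up to 0.085). Slc31a2, a CTR1-like protein of endosomes and lysosomes, was at 118, 119 and 113 FPKM in control, 159, 177 and 162 after R837, and 116, 114 and 127 with spermidine. Only the R837 libraries were raised, and the steps were 0.50 ± 0.07 and -0.47 ± 0.07 (limma adjusted p = 0.00054 and 0.0040). Of magnesium carriers, Slc41a3 fell with R837 from 4.09 ± 0.114 to 2.26 ± 0.448 FPKM (limma adjusted p = 0.0086).

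**Figure D4:**
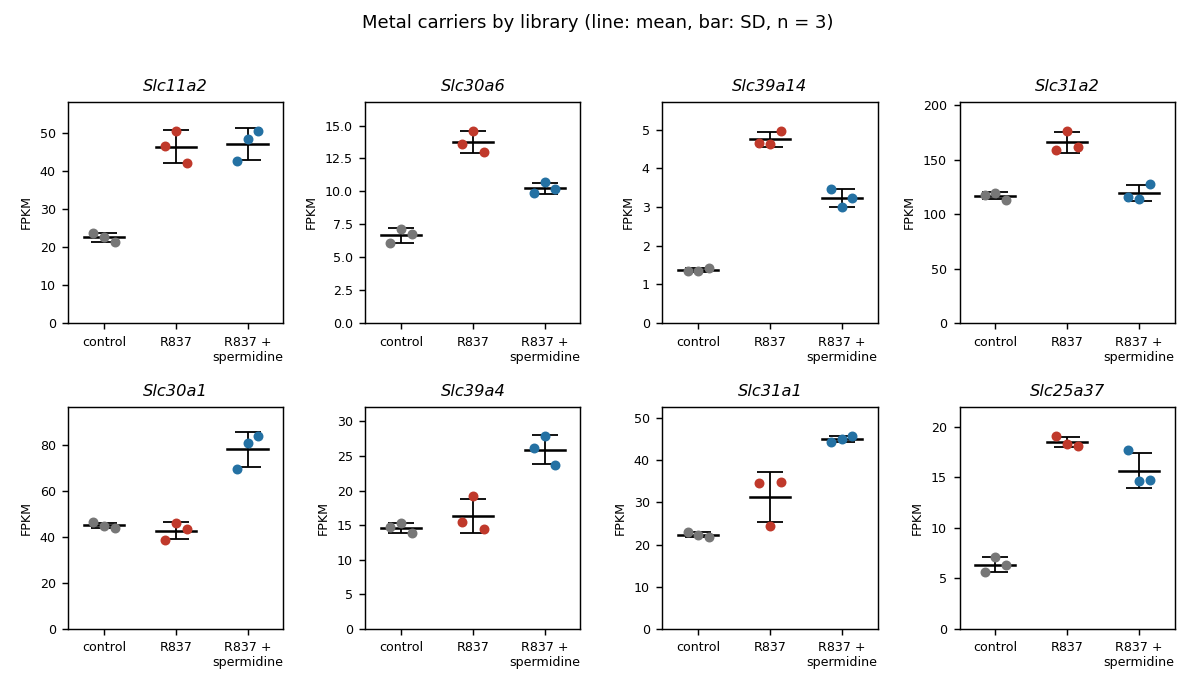
FPKM of 7 metal carriers and the mitochondrial iron importer Slc25a37 in each of the 9 libraries (points), with group mean (line) and SD (bar), each panel starting at 0. Slc30a1, Slc39a4 and Slc31a1 are highest with spermidine, Slc31a2 is highest in R837 at 159 to 177 FPKM, and Slc11a2 is raised alike in both treated groups.

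Mitochondrial carriers, the largest class, had 3 of 31 higher, 12 lower and 16 not called after R837, with a median of -0.27; with median-of-ratios scaling the split was 6 rises and 7 falls. These are 9.68% and 38.7% of the class, beside 13.6% and 29.5% of all genes. With spermidine, 1 rose and 3 fell, 3.23% and 9.68% beside 5.60% and 8.0%. Both pairs of shares are near those of all genes, and nothing is read from them about the class. The mitoferrins, which bring iron into mitochondria for heme and iron-sulfur clusters, went opposite ways. Slc25a37, mitoferrin 1, measured 5.61, 7.10 and 6.31 FPKM in control, 19.1, 18.3 and 18.1 after R837, and 17.7, 14.6 and 14.7 with spermidine. Slc25a28, mitoferrin 2, measured 12.8, 15.3 and 14.3 FPKM, then 6.97, 6.09 and 6.57, then 7.55, 8.17 and 6.89. Both treated groups were separate from control for each gene, so that mitoferrin 2 was the higher of the pair per length in control and mitoferrin 1 the higher after R837. The steps with R837 were 1.42 ± 0.10 and -1.0 ± 0.09 (limma adjusted p = 6.3e-06 and 3.3e-05), and neither gene was called for spermidine. Slc25a37 is also an erythroid gene, and R837 replicates 2 and 3 held hemoglobin mRNA. In R837 replicates 1 to 3, Slc25a37 was at 19.1, 18.3 and 18.1 FPKM and Hbb-bs at 0, 98 and 815. The part of erythroid mRNA in the rise of Slc25a37 was not tested.

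Slc25a25, a calcium-regulated carrier of ATP-Mg and phosphate, was highest after R837 and lowest in control. It was at 5.05, 5.48 and 4.38 FPKM in control, 12.3, 12.9 and 11.3 after R837, and 6.20, 5.73 and 6.17 with spermidine, with steps of 1.14 ± 0.09 and -0.90 ± 0.09 (limma adjusted p = 1.3e-05 and 0.00057). All spermidine libraries lay above control, by 0.24 on the log2 scale (limma adjusted p = 0.057). That difference passed with TPM (0.28, adjusted p = 0.045), median-of-ratios scaling (0.41, adjusted p = 0.0070) and quantile normalization (0.39, adjusted p = 0.0089). Slc25a10, the dicarboxylate carrier, rose with R837 from 4.84 ± 0.614 to 7.82 ± 1.57 FPKM (limma adjusted p = 0.0071) and was 6.18 ± 0.50 with spermidine. Slc25a44, a branched-chain amino acid carrier, fell from 66.5 ± 7.24 to 40.4 ± 3.11 FPKM (limma adjusted p = 0.00039). The 1 mitochondrial rise with spermidine, named after its values were seen, was the aspartate-glutamate carrier Slc25a12 (6.01, 4.38 and 5.60 FPKM, 0.30 ± 0.08, limma adjusted p = 0.041).

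Calls on the abundant ADP/ATP carriers depended on single libraries. Slc25a5, an ADP/ATP carrier, was at 187, 178 and 157 FPKM in control and 125, 158 and 129.7 after R837, so the groups overlapped. Its fall of -0.34 (limma adjusted p = 0.034) became -0.16 with median-of-ratios scaling (adjusted p = 0.30) and was lost without R837 replicate 1 or 3 or control replicate 1 or 2 (adjusted p up to 0.117). The paralog Slc25a4 was 32.0 ± 2.80 and 25.6 ± 4.41 FPKM and was not called (-0.32, limma adjusted p = 0.056); its fall passed without R837 replicate 2 (-0.45, adjusted p = 0.0028) and with R837 replicate 1 alone (-0.46, adjusted p = 0.018). Both have processed pseudogenes that may share reads. Slc25a39, needed for glutathione import into mitochondria, fell from 25.9 ± 1.97 to 19.7 ± 2.55 FPKM with a change of -0.38 (limma adjusted p = 0.043). That call failed under median-of-ratios scaling (-0.20, adjusted p = 0.28), without any control library or without R837 replicate 3 or spermidine replicate 3 (adjusted p up to 0.130), and with R837 replicate 1 alone (-0.24, adjusted p = 0.288).

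All 4 nucleoside and nucleobase carriers changed with R837, 2 up and 2 down (2 and 1 with median-of-ratios scaling), and 3 were lower with spermidine. Among all genes, 13.6% rose and 29.5% fell with R837, and 8.0% fell with spermidine. A class of 4 is too small to read a share from. Slc28a2, the concentrative purine nucleoside importer CNT2, was at 6.16, 6.12 and 5.24 FPKM in control, 13.4, 10.8 and 15.4 after R837, and 8.21, 9.61 and 9.48 with spermidine. Groups did not overlap. Its rise was 1.04 ± 0.13 (limma adjusted p = 0.00018); the fall with spermidine, -0.48 ± 0.13 (adjusted p = 0.037), was lost when any library but R837 replicate 2 or control replicate 3 was left out (adjusted p up to 0.101). Slc43a3, a purine nucleobase transporter, measured 12.6, 12 and 11.9, then 19.9, 13.8 and 20.9, then 11.4, 11.6 and 11.5 FPKM. R837 replicate 2 lay nearer the other groups than its own; the steps were 0.52 and -0.60 (limma adjusted p = 0.012 and 0.021), the second lost without R837 replicate 1 (adjusted p = 0.063) or any spermidine library (up to 0.070).

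Slc29a3, the equilibrative nucleoside transporter of lysosomes, was the most abundant of the class and fell with R837. It measured 73.6, 78.2 and 80.5 FPKM in control, 40.5, 39.7 and 40.3 after R837, and 41.6, 43.1 and 38.5 with spermidine. The fall was -0.93 ± 0.07 (limma adjusted p = 8.4e-06), and spermidine made a difference of 0.03 with an interval of -0.13 to 0.19. Slc29a1, the plasma membrane transporter ENT1, went down at both steps, 13.3 ± 0.903, 10.3 ± 1.14 and 7.27 ± 0.606 FPKM (-0.34 and -0.45, limma adjusted p = 0.019 and 0.018). The first step was lost with median-of-ratios scaling (-0.18, adjusted p = 0.20) and without R837 replicate 1 (0.062), R837 replicate 3 (0.058) or control replicate 3 (0.071). The second was lost without spermidine replicate 2 (adjusted p = 0.069) or 3 (0.075) and with R837 replicate 1 alone (-0.37, adjusted p = 0.103).

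Carriers of the lysosomal membrane form a list that crosses these classes. Of 11 expressed members of 13 listed, 7 fell (63.6%), 2 rose (18.2%) and 2 were not called after R837, with a median of -0.47 against -0.17 for all genes, of which 29.5% fell and 13.6% rose. The counts were the same with median-of-ratios scaling, where 16.5% of all genes fell and 18.1% rose, and without Slc46a3 they were 6 falls and 2 rises among 10. With spermidine, 1 rose and 1 fell. The list does not hold every carrier that is placed in endosomes or lysosomes here. Slc15a3, Slc2a6 and Slc31a2 all rose with R837 and were lower with spermidine, so at most 1 of them is in the list. It was also chosen with earlier results known, and its shares describe the listed genes alone. Slc17a5, sialin, which exports sialic acid from lysosomes, was at 18.1, 20 and 17.2 FPKM in control, 6.98, 7.19 and 6.59 after R837, and 7.34, 7.76 and 8.01 with spermidine. Both treated groups lay far below control, and the fall was -1.29 ± 0.08 (limma adjusted p = 2.4e-06). Slc37a2, a sugar phosphate exchanger, fell from 30.1 ± 1.23 to 14.6 ± 2.4 FPKM (-1.01, limma adjusted p = 0.00046), and Slc46a3, another lysosomal carrier, stood at 2.77 ± 0.291 FPKM in control and 0.908 ± 0.124 after R837.

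Peptide carriers that hold the histidine and muropeptide balance of endolysosomes did not follow. Slc15a3 measured 150.4, 153 and 148 FPKM in control, 213, 259.6 and 216 after R837, and 189.6, 182 and 184 with spermidine. Groups were separate, and the rise was 0.60 ± 0.08 (limma adjusted p = 0.00040). The fall with spermidine, -0.30 ± 0.08 (adjusted p = 0.043), was lost without any spermidine or control library (adjusted p up to 0.125) and with R837 replicate 1 alone (-0.20, adjusted p = 0.111). Slc15a4, needed for Toll-like receptor 7 responses in mouse plasmacytoid dendritic cells, was at 11.2 ± 0.559, 9.75 ± 0.816 and 9.02 ± 2.5 FPKM and was not called, with an interval of -0.54 to 0.16 for R837 and -0.47 to 0.22 for spermidine.

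Sugar carriers held the largest rise of all members, while 8 of 11 fell after R837 (5 with median-of-ratios scaling) and 1 rose. The share of all genes that fell was 29.5%, or 16.5% with median-of-ratios scaling, and 13.6% rose. Classes follow gene families, so this one also holds the multivitamin carrier Slc5a6. Slc2a6, the lysosomal hexose transporter GLUT6, was at 46.0, 47.1 and 44.8 FPKM in control, 187, 241 and 183 after R837, and 113, 114 and 111 with spermidine. No group overlapped another, with spermidine libraries between the others. It rose 4.44-fold in group means with R837 (2.11 ± 0.10, limma adjusted p = 5.7e-07) and fell by 0.83 with spermidine (± 0.10, adjusted p = 0.0014). Slc37a4, the glucose-6-phosphate carrier of the endoplasmic reticulum, fell from 6.46 ± 0.181 to 2.99 ± 0.381 FPKM (limma adjusted p = 8.5e-05) and was 3.16 ± 0.345 with spermidine.

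Osmolyte and transmitter carriers of the Slc6 family moved in different directions. Slc6a12 and Slc6a13, neighbours in the genome, rose with R837. The more abundant taurine transporter Slc6a6, named after its values were seen, was at 95, 101 and 96.2 FPKM in control, 68.5, 78.1 and 67.7 after R837, and 71.5, 71.7 and 69.5 with spermidine. It fell with R837 by 0.44 on the log2 scale (± 0.07, limma adjusted p = 0.0012; -0.26 and adjusted p = 0.020 with median-of-ratios scaling) and was not called for spermidine. The creatine transporter Slc6a8, likewise named afterwards, was called at neither step (44.8 ± 7.40, 37.3 ± 4.09 and 44.1 ± 7.86 FPKM). Slc6a12, the betaine and GABA transporter BGT1, measured 27.6, 27.3 and 29.5 FPKM in control, 72.0, 84.2 and 70.7 after R837, and 51.5, 49.9 and 49.2 with spermidine. Slc6a13, the GABA transporter GAT2, measured 3.99, 3.87 and 3.96, then 9.72, 10.3 and 7.94, then 5.83, 2.84 and 5.18 FPKM. The R837 libraries were highest for both. Slc6a12 stayed above control with spermidine and Slc6a13 overlapped control. Steps were 1.39 ± 0.08 and -0.58 ± 0.08 for Slc6a12 (limma adjusted p = 1.8e-06 and 0.0027), and 1.06 ± 0.19 and -0.91 ± 0.19 for Slc6a13 (adjusted p = 0.0022 and 0.017). The fall of Slc6a13 was lost with R837 replicate 1 alone (adjusted p = 0.095). The genes lie head to tail on chromosome 6, 5342 bases apart, and strandedness of the libraries is not given.

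Of the remaining organic ion carriers, Slc22a4, which transports ergothioneine, had the largest spermidine rise among the members. It was at 13.3, 13.9 and 12.7 FPKM in control, 13.4, 14.2 and 13.8 after R837, and 24.3, 28.8 and 29.2 with spermidine. Control and R837 libraries overlapped and all spermidine libraries were above them, by 0.94 ± 0.08 over R837 (limma adjusted p = 0.00034). Its paralogs Slc22a5 and Slc22a21 lie beside it on chromosome 11, and reads could be split among the 3. In the class as a whole, 6 of 14 rose and 5 fell with R837 (6 and 3 with median-of-ratios scaling). Membership favoured the changes of Slc22a21, Slc22a23, Slc6a4 and Slc47a1. Without these, 3 of 10 rose and 4 fell, beside 13.6% and 29.5% of all genes.

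Monocarboxylate carriers held the largest spermidine fall. Slc16a6, a carrier of taurine and, in zebrafish, ketone bodies, was at 14.9, 14 and 14.7 FPKM in control, 20.2, 20.1 and 18.5 after R837, and 9.43, 9.01 and 7.92 with spermidine. Its spermidine libraries were below control as well as R837, with steps of 0.41 ± 0.08 and -1.08 ± 0.08 (limma adjusted p = 0.0034 and 0.00015).

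**Figure D5:**
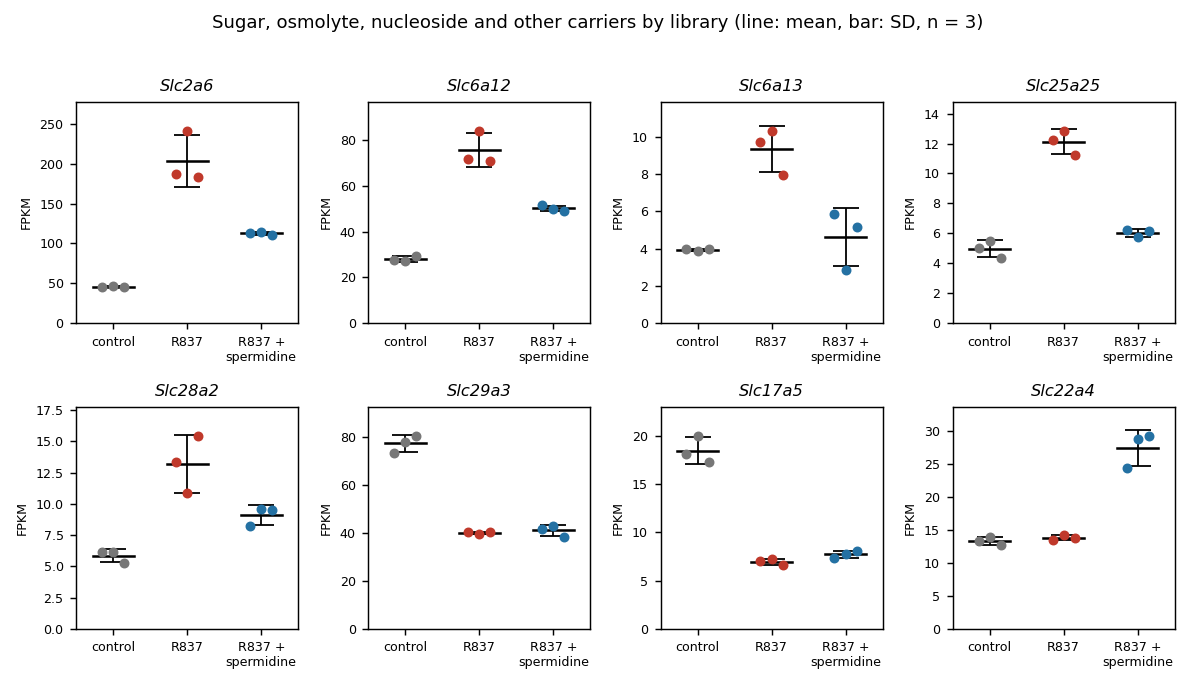
FPKM of 8 sugar, osmolyte, mitochondrial, nucleoside and other carriers in each of the 9 libraries (points), with group mean (line) and SD (bar), each panel starting at 0. Slc2a6, Slc6a12, Slc6a13 and Slc25a25 are highest after R837, Slc29a3 and Slc17a5 are low in both treated groups, and Slc22a4 is high only with spermidine, at 24.3 to 29.2 FPKM.

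Of the lipid and choline carriers, 1 of 7 rose and 5 fell after R837 (1 and 4 with median-of-ratios scaling), and none was called for spermidine. Without Slc10a7 and Slc27a6, whose membership favoured their fall, 1 of 5 rose and 3 fell, beside 13.6% and 29.5% of all genes. Slc44a1, the choline transporter CTL1, was at 3.42, 3.63 and 3.37 FPKM in control, 18.7, 9.67 and 17.5 after R837, and 13.3, 16.6 and 14.9 with spermidine. Both treated groups were above control and overlapped, R837 replicate 2 being the lowest treated library. The rise was 1.81 ± 0.21 (limma adjusted p = 0.00011). Slc27a6, a fatty acid transport protein, went from 3.52 ± 0.221 to 0.609 ± 0.0941 FPKM (a log2 change of -1.49) and was 1.03 ± 0.187 with spermidine.

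Vitamin carriers fell or were not called: 4 of 7 fell with R837 (3 with median-of-ratios scaling), none rose, and none was called for spermidine. Leaving aside Slc46a3, whose membership favoured its fall, 3 of 6 fell, beside 29.5% of all genes. Slc46a1, the proton-coupled folate transporter, is 1 of these 3, at 1.97 ± 0.306 FPKM in control and 0.710 ± 0.259 after R837. Only 1 R837 library and no spermidine library reached 1 FPKM, so its membership rested on control and its fall is a description. Among nucleotide sugar carriers, which feed glycan synthesis in the Golgi apparatus, 1 of 20 rose and 6 fell with R837 (1 and 4 with median-of-ratios scaling). All genes gave 13.6% rises and 29.5% falls, and nothing is read from these counts about the class. The riser, Slc35b2, brings the sulfate donor PAPS into the Golgi apparatus and went from 11.3 ± 0.826 to 16.5 ± 1.96 FPKM, and was 11.1 ± 0.222 with spermidine (limma adjusted p = 0.0024 and 0.0077). Slc35c2, a relative of the GDP-fucose carrier, fell from 12.6 ± 0.381 to 6.50 ± 0.897 FPKM (adjusted p = 0.00013).

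Inorganic ion carriers counted 2 rises and 6 falls among 19 with R837 (3 and 5 with median-of-ratios scaling). Membership favoured the changes of Slc4a7 and Slc9a9, and without them 1 of 17 rose and 5 fell. Shares of all genes were 13.6% and 29.5%, and nothing is read from these counts about the class. Slc26a11, a sulfate and chloride carrier, fell from 14.7 ± 0.673 to 5.83 ± 0.570 FPKM (-1.20 ± 0.09, limma adjusted p = 6.2e-06). Slc4a7, a sodium bicarbonate cotransporter, stood at 0.632 ± 0.117 FPKM in control and 2.20 ± 0.409 after R837. Slc20a1, a phosphate importer, fell from 25.6 ± 1.62 to 16.1 ± 1.20 FPKM and was 21.7 ± 0.577 with spermidine (limma adjusted p = 0.00021 and 0.012), the second step lost with R837 replicate 1 alone (0.32, adjusted p = 0.086). The scaffold genes Slc9a3r1 and Slc9a3r2, with Slc7a6os and Slc4a1ap, carry the name without being transporters, and none of the 4 was called at either step.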

How the data were processed

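The authors deposited 1 table per library with FPKM for each gene identifier; per the submitters' processing notes HISAT2 and StringTie were used and the builds mm8 and mm10 are named, with versions, annotation, roles and strandedness not given in the sources used here. Of 52550 identifiers, 99.72% matched GENCODE M21 without version; 73 symbols had several identifiers, whose FPKM were summed, none of them a member. FPKM sums were 310220 to 326222 per library. Total reads are unknown: low values of single-transcript genes stepped in units that differed 1.36-fold between libraries, but only 28.5% to 30.6% were whole multiples within 0.03, so no reads were recovered.

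Changes were tested with limma 3.58.1 in R 4.3.3 (intensity trend) on log2(FPKM + 1), all 9 libraries in 1 fit without covariates, on 11768 genes at 1 FPKM or more in at least 3 libraries, with Benjamini-Hochberg adjustment over them and a threshold of 0.05. Changes on this scale understate those of low genes. The script was tested on simulated data. Alternatives were another pseudocount (0.1), no filter, a mean of at least 5 FPKM, TPM, quantile and median-of-ratios scaling, a replicate block and leaving out each library.

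Genes named were, in each of the first 2 comparisons, the 10 largest rises and 10 largest falls without overlap and with a mean of at least 5 FPKM in the higher group; all members of the nucleoside and peptide classes and the polyamine, system L, endolysosomal, ADP/ATP and mitochondrial iron lists; the 8 largest changes of the amino acid, metal and mitochondrial classes; and 2 of each other class. Members, lists and classes were chosen with earlier results of these data known. Promoters came from RefSeq, build GRCm38.p6. Some genes that meet these rules are not reported here.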

Additional observations from a re-analysis of the deposited data

How the results depend on the processing

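Depth behind each value is unknown, FPKM of members near 1 rests on few fragments, and 3 libraries a group limit every comparison. Counts of members called moved by more than 1.5 times in these cases. For R837 against control, falls numbered 31 in place of 61 when a mean of at least 5 FPKM was required, a filter that leaves fewer members to count. For R837 with spermidine against R837, rises numbered 9 in place of 14 and falls 15 in place of 23 without the filter on low values, and falls 9 with R837 replicate 1 as the sole R837 library. For R837 with spermidine against control, falls numbered 42 in place of 67 with median-of-ratios scaling and 36 with a mean of at least 5 FPKM. Leaving out 1 library at a time gave 30 to 35 rises and 51 to 69 falls for R837, 7 to 15 rises and 9 to 23 falls for spermidine, and 28 to 39 rises and 53 to 76 falls for both against control. Over all genes the same fits gave 1379 to 1775 rises and 2634 to 3805 falls for R837. They gave 290 to 739 and 459 to 933 for spermidine, and 1342 to 2014 and 3062 to 4498 for both against control. The cause of the scaling differences was not tested.

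The 69 named genes gave 132 called values over the 3 comparisons; 105 were kept when any 1 library was left out, 116 under all 3 scalings, and 101 under every setting run. No value called in the main fit or under a setting had the opposite sign there. Sign changes of values called in neither were not counted. Many of the named genes were picked for large called changes in these same data, which favours the keeping of their calls. The 132 values also include members whose membership favoured their change, such as Slc27a6 and Slc4a7. The numbers kept describe the named genes alone and do not measure how reliable the calls are.

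Deviations from the group mean had correlations of -0.09 to 0.16 between same-numbered libraries of different groups. Differently numbered libraries gave -0.21 to 0.20. With 3 libraries a group, these values cannot decide whether the numbers pair the samples. A fit with the replicate block called 34 rises and 56 falls for R837, 11 and 17 for spermidine, and 34 and 60 for both against control. Over all genes that fit called 1541 and 3272, 470 and 661, and 1607 and 3638.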
